A study of Homo sapiens with 6 samples.

Results

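The 9 genes described here are CGA, which codes for the alpha subunit shared by all glycoprotein hormones, the beta subunits LHB, FSHB and TSHB, and the transcription factors GATA2, GATA3, TFAP2A, TFAP2C and DLX3. They were found by gene symbol among 18852 genes with a probe on the array and had 15 probes. The set was chosen by the large increase of CGA in this same comparison, with the other genes added for their known relation to CGA. Their differences between the groups are therefore given as a description, the fit's calls on them support nothing, and no p-value is printed for them. The RNA came from HEK293, an established cell line of human embryonic kidney origin. The control group (3 samples) was kept for 3 days in complete medium alone. The treated group (3 samples) was grown for 3 days with all-trans retinoic acid (tRA), the ligand of the retinoic acid receptors, together with N6,2'-O-dibutyryl-cAMP (called cAMP in the group name), a cell-permeant analog of that second messenger. Both agents were given together, so their effects cannot be told apart, and the doses are not given in the sources used here. Whether the samples of a group were separate cultures is not stated in the labels, so the spread within a group, and every p-value, may be technical.

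Each glycoprotein hormone is a pair of the shared alpha subunit with a beta subunit that gives the hormone its specificity: LHB for luteinizing hormone, FSHB for follicle-stimulating hormone, TSHB for thyrotropin and the CGB genes for chorionic gonadotropin. CGA is normally made in the anterior pituitary and in the placental syncytiotrophoblast. In placental cells its promoter is known to be driven by cAMP through tandem cAMP response elements (CRE), the binding site of CREB and related factors, and by neighbouring elements bound by GATA, AP-2 and DLX3 proteins. GATA2 and GATA3 are zinc finger factors, TFAP2A and TFAP2C are AP-2 factors, and DLX3 is a homeodomain factor. All 5 are expressed in trophoblast.

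The promoter of CGA is shown beside those of the beta subunit genes because CGA was the hormone gene that differed and its response elements lie there. The windows are the 250 bases before the annotated start (RefSeq, build GRCh38.p14), read on the gene's strand. They lie at chr6:87095107-87095356 (minus strand) for CGA, chr19:49017092-49017341 (minus strand) for LHB, chr11:30230764-30231013 (plus strand) for FSHB and chr1:115033696-115033945 (plus strand) for TSHB. Capitals mark the CRE (TGACGTCA), GATA hexamers on either strand (AGATAA or the variant AGATAG, and with a leading T the hexamer TGATAA or the variant TGATAG) and the homeodomain core TAATTA. In CGA they are, from left to right, a GATA hexamer, a CRE, a second CRE and TAATTA.
CGA: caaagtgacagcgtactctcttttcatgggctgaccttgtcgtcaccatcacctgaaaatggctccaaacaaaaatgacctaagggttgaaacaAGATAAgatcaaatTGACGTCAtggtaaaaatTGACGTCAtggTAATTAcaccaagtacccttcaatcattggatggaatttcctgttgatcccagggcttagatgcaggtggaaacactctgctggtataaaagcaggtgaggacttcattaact
LHB: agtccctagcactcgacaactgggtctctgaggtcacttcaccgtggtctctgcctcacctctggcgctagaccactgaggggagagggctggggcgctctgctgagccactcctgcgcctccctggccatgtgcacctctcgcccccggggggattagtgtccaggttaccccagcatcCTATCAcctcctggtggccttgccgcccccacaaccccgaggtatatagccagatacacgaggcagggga
FSHB: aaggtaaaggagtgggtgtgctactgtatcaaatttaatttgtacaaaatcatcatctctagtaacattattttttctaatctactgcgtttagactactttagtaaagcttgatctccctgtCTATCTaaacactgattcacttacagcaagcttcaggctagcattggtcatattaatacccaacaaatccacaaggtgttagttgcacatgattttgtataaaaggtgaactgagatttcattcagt
TSHB: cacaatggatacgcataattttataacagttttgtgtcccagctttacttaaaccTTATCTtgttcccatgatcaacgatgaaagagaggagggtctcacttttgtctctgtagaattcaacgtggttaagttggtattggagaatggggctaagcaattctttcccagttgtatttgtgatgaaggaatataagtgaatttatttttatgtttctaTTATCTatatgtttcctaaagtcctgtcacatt

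The CGA window held 2 copies of the CRE, from -142 to -135 and from -124 to -117 relative to the start. Each copy sat in an 18-base stretch that was repeated exactly and directly after itself, beginning at -146 and -128: aaatTGACGTCAtggtaa. The GATA hexamer AGATAA lay just upstream, from -156 to -151, and TAATTA just downstream, from -113 to -108. LHB and FSHB each held 1 GATA hexamer and TSHB held 2, and none of the 3 beta subunit windows held a CRE or TAATTA. Over all 35116 windows of this length in the table, 1.65% held a CRE, 0.0541% (19 windows) held 2 or more, 22.3% held a GATA hexamer and 4.35% held TAATTA. The AP-2 motif GCCNNNGGC, present in 19.8% of all windows, was not matched in these 4 windows. A match is a description of letters, not of binding.

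The tables held windows for 7 of the 9 genes, 14 windows in all; DLX3 and TFAP2C had none. GATA2 had 2 annotated starts, TFAP2A had 2 and GATA3 had 6, and none of these windows held a CRE, a GATA hexamer or TAATTA. The AP-2 motif was matched in both GATA2 windows and in 3 of the 6 GATA3 windows. Which of these starts was used in the cells was not tested.

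**Figure D1:**
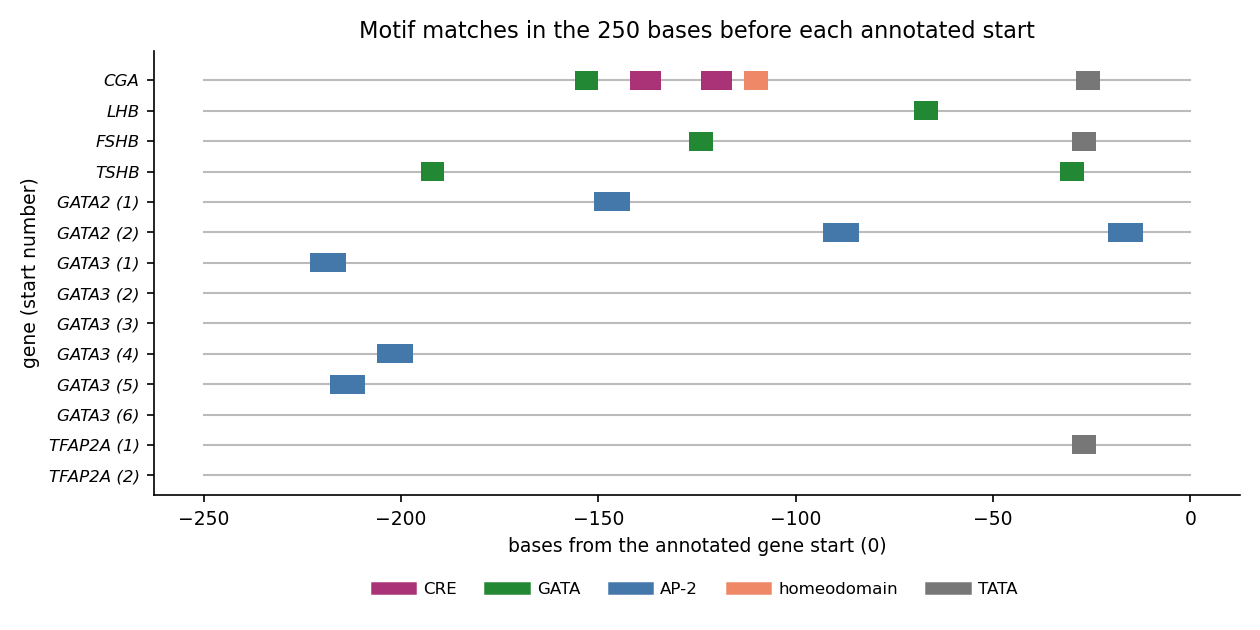
Motif matches in the 250 bases before each annotated start of the 7 genes with a window; the x axis is the distance in bases from the start, each line is 1 start, and coloured bars are matches (TATA stands for TATAAA on the gene's strand). CGA alone among these lines holds the CRE, with 2 copies between -142 and -117.

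One bead array of 48803 probes was used per sample, and 14792 to 16103 probes per array (30.3% to 33%) were detected, meaning a detection p-value under 0.01 against the negative control probes. All 6 arrays were on 1 chip, with the control samples in the first positions, so chip position and treatment cannot be told apart. Of 7 genes known to be expressed in HEK293 cells, 6 (VIM, KRT8, KRT18, TUBB3, NEFL and CDH2) were detected on all arrays and PAX2 on none. The summed raw signal of their probes was 94144 to 103914 in the control and 57200 to 70576 in the treated samples, with VIM, a cytoskeletal filament gene, not called by its brighter probe (-0.50 on the log2 scale; limma, adjusted p = 0.0565). The other VIM probe, also detected on all arrays, differed by -0.91 (standard error 0.13) and was called lower in the limma fit over single probes. The sum follows mainly VIM, whose probes read 43819 and 31558 on control array 1, against 14969 for CDH2. CDH2 differed by -0.53 (limma, adjusted p = 0.0738), KRT8 by 0.26, KRT18 by -0.02, TUBB3 by 0.07 and NEFL by -0.14. None of these was called. Normalized log2 intensities were fitted with limma over 9944 genes, and a gene is called where its Benjamini-Hochberg adjusted p was under 0.05. Of those genes 2.56% were called (110 higher and 145 lower with tRA and cAMP), and 1416 (14.2%) had an unadjusted p under 0.05. In 18.9% the 3 control and the 3 treated arrays did not overlap.

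Of the 9 genes, 6 had a probe detected on all arrays of at least 1 group and were tested, and LHB, FSHB and TSHB had none. In that fit CGA, GATA2 and GATA3 were called higher, none was called lower, and TFAP2A, TFAP2C and DLX3 were not called. Beside the background of 2.56% of all genes these 3 calls of 6 tested genes are no result, since the comparison was the one that chose the set. The arrays of the groups did not overlap in 4 of the 6, the called genes and TFAP2A, against 18.9% of all genes tested. For the same reason this count is no result either. Over the tested genes the median difference was 0.37 on the log2 scale, between -0.37 and 5.89, against 0.00 over all genes tested. This median too only describes the chosen set, in which TFAP2A (-0.37), TFAP2C (-0.10) and DLX3 (-0.12) had negative differences. CGA passed the detection filter through the treated group alone.

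CGA was near the background on the control arrays and bright on the treated ones. Its single probe gave raw signals of 391, 320 and 386 on the 3 control arrays, with detection p-values of 0.0158, 0.0237 and 0.0119, all just outside the limit of 0.01. With tRA and cAMP the raw signals were 8349, 10084 and 8122, and each detection p-value was 0. The groups lie far apart, and no array of either group falls between 391 and 8122. After normalization the log2 intensity was 7.23, 6.98 and 7.48 in the control samples and 13.01, 13.18 and 13.17 in the treated samples. The treated arrays spread by an SD of 0.10 and the control arrays by 0.25 (n = 3 each).

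The fitted difference of CGA was 5.89 on the log2 scale (standard error 0.15). Because no control array detected CGA the fold is a bound: it was at least 49.3-fold higher, or at least 23.8-fold higher where the background was left in the signal. The bound sets the treated mean against the lowest detected signal of each control array. The bulk signal cannot tell more cells with CGA RNA from more CGA RNA per cell.

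**Figure D2:**
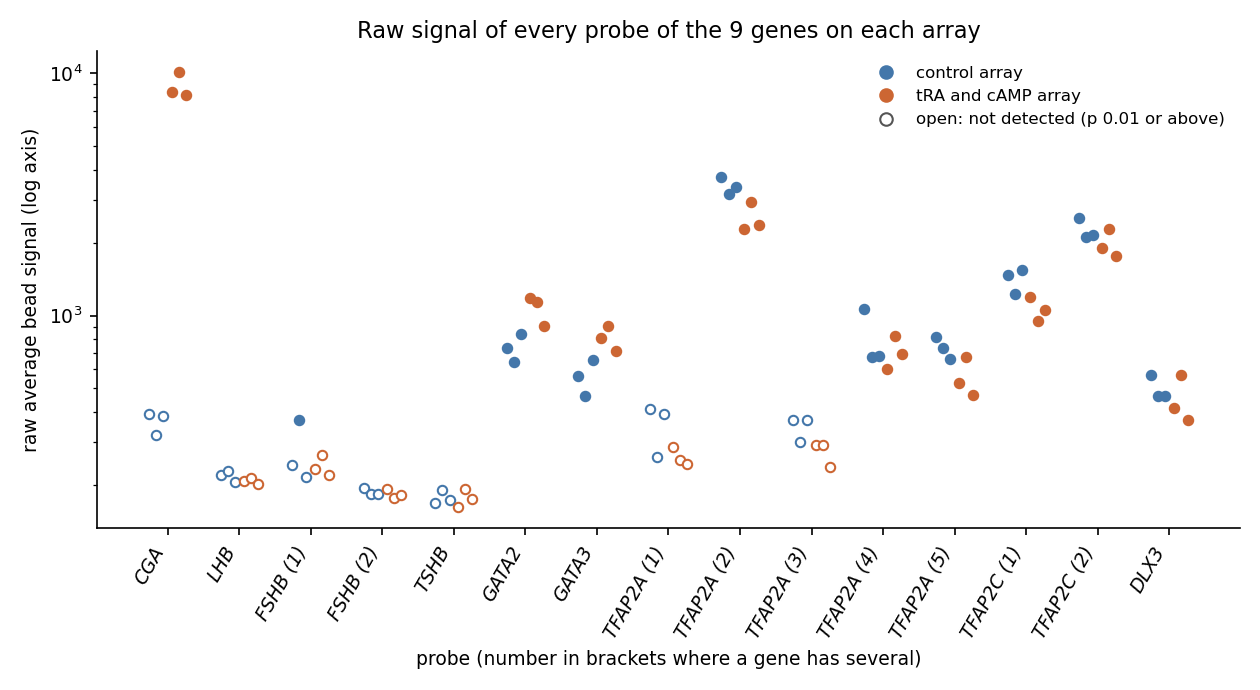
Raw average bead signal (log axis) of all 15 probes of the 9 genes on the 3 control arrays (blue) and the 3 tRA and cAMP arrays (orange); open circles were not detected. The treated CGA signals lie between 8122 and 10084 against 320 to 391 in the controls, and the beta subunit probes stay at the bottom in both groups.

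No beta subunit was detected beyond a single array. LHB, the luteinizing hormone subunit, had raw signals of 220, 228 and 206 in the control samples and 208, 213 and 201 in the treated samples. Its lowest detection p-value was 0.256. The groups overlap, and every value is at the level of the negative controls. TSHB, the thyrotropin subunit, read 168, 190 and 173 in the control and 162, 193 and 174 in the treated samples, with a lowest detection p-value of 0.696.

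FSHB, the follicle-stimulating hormone subunit, had 2 probes. The first read 242, 370 and 216 in the control and 232, 266 and 219 in the treated samples, and was detected on control array 2 alone (detection p 0.00791). The second read between 177 and 193 on all arrays and was detected on none, so the single detection was not shared between the probes. The 3 beta subunits were not well above background in either group, and no fold is given.

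The genes that code for the other partners of CGA were as dim. CGB1, CGB2, CGB3, CGB5, CGB7 and CGB8, the chorionic gonadotropin beta genes and their relatives, had 9 probes, of which 8 were detected on no array. The CGB3 probe was detected on 1 treated array (detection p 0.00791). Its raw signal lay between 292 and 352 in the control and between 313 and 379 in the treated samples. The CGB genes and LHB are near-identical copies, and a probe may not separate them. GPHA2 and GPHB5, the subunits of thyrostimulin, were detected on no array.

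GATA2 and GATA3 were both brighter on the treated arrays, by much less than CGA. GATA2 gave raw signals of 736, 642 and 836 in the control samples and 1183, 1141 and 905 in the treated samples. Its normalized log2 intensity was 8.81, 8.87 and 9.27 in the control and 9.93, 9.76 and 9.80 in the treated samples. The groups do not overlap, and control array 3 is the highest of its group. The difference was 0.85 on the log2 scale (standard error 0.14), a 1.80-fold rise.

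GATA3 gave raw signals of 562, 463 and 657 in the control samples and 811, 903 and 714 in the treated samples. Its normalized log2 intensity was 8.22, 8.12 and 8.78 in the control and 9.22, 9.35 and 9.37 in the treated samples. Here too the groups do not overlap, and control array 3 again stands above the other controls. The difference was 0.94 on the log2 scale (standard error 0.17), a 1.92-fold rise. Each of the 2 genes had 1 named probe, detected on all 6 arrays.

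The calls of the GATA genes lay near the threshold. Without control replicate 1 (0.76 for GATA2 and 0.87 for GATA3 on the log2 scale) or control replicate 2 (0.79 and 0.82) neither was called in limma. GATA2 was also not called without treated replicate 1 (0.79), and GATA3 was not called without treated replicate 2 (0.92) or 3 (0.92). Neither was called without normalization between arrays (0.73 and 0.82) or when dim probes were all kept in the fit (0.85 and 0.94). Without control replicate 3, the brightest control array for both, the differences were 0.99 and 1.15 and both were called.

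**Figure D3:**
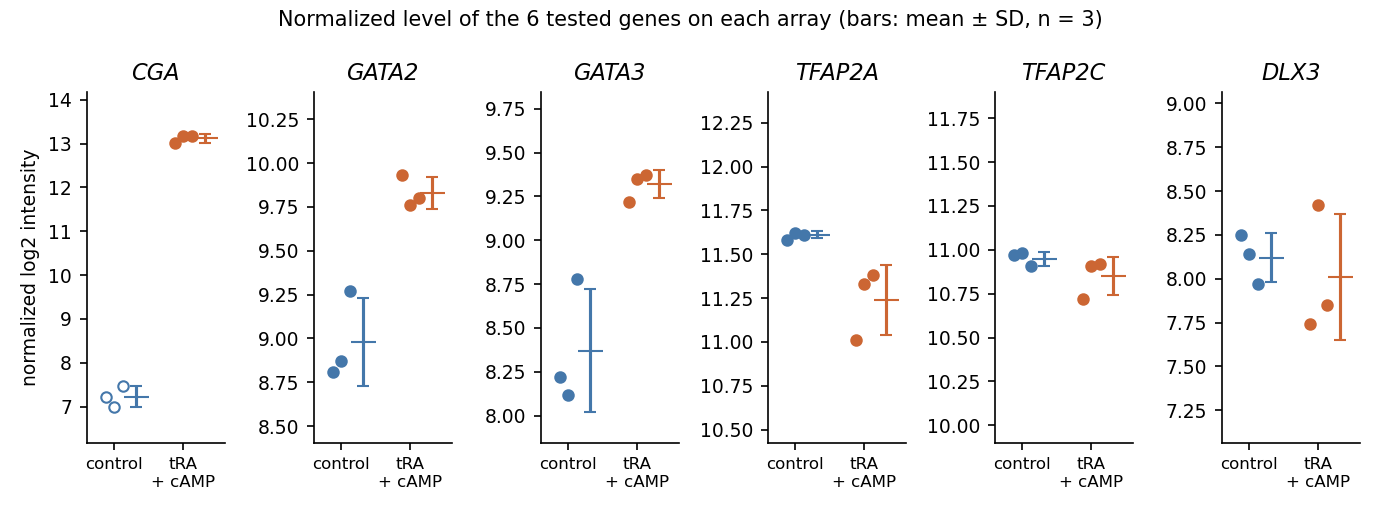
Normalized log2 intensity of the 6 tested genes on each array, with the mean and SD (n = 3) beside the points; open circles were not detected, and the CGA axis spans more log2 units than the other axes. GATA2 rises from 8.98 to 9.83 and GATA3 from 8.37 to 9.32 without overlap, while the points of DLX3 and TFAP2C overlap.

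The AP-2 factor TFAP2A had 5 probes, 3 of them detected on all arrays. The brightest, which stands for the gene, read 11.58, 11.62 and 11.61 in the control and 11.01, 11.33 and 11.38 in the treated samples (normalized log2 intensity). The treated arrays lie below all control arrays and spread more widely, with an SD of 0.20 against 0.02. The difference was -0.37 (standard error 0.13) and was not called. The other tested probes differed by -0.45 (standard error 0.16) and -0.07 (standard error 0.22), with overlapping arrays in both. The remaining 2 probes of TFAP2A were detected on no array.

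TFAP2C, the AP-2 factor known as AP-2 gamma, had 2 probes detected on all arrays. The brighter read 10.97, 10.98 and 10.91 in the control and 10.72, 10.91 and 10.92 in the treated samples, a difference of -0.10 (standard error 0.12). The other read 10.09, 10.09 and 10.35 against 9.95, 9.45 and 10.07, a difference of -0.36 (standard error 0.17). The treated arrays lie below the control arrays for the second probe and overlap them for the first, and neither probe was called. Over single probes, 3 of the 9 tested probes of the set were called in limma, those of CGA, GATA2 and GATA3, where 2.01% of 14923 tested probes were called. The called probes are the same ones that stood for these genes in the fit over genes, so their calls are counted again here. Because the comparison also chose the set, this count beside the background is no result.

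DLX3, the homeodomain factor, was dim but detected on all 6 arrays. Its raw signals were 569, 466 and 464 in the control and 417, 568 and 372 in the treated samples. The normalized log2 intensity was 8.25, 8.14 and 7.97 in the control and 7.74, 8.42 and 7.85 in the treated samples. The groups overlap, and treated array 2 is the highest of the 6. The difference was -0.12 (standard error 0.18), and without treated replicate 1 it was 0.02.

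The relatives of these factors were looked at next. Of 16 other genes of the GATA, AP-2, DLX and MSX families and the GATA cofactors ZFPM1 and ZFPM2, 7 were tested and 0 were called in limma, where 4 had an unadjusted p under 0.05. Over all genes tested 2.56% were called and 14.2% had such a p. GATA5 differed by 0.48 (standard error 0.20; limma, adjusted p = 0.289), DLX5 by 0.33 (standard error 0.14; limma, adjusted p = 0.303) and DLX1 by 0.02 (standard error 0.13; limma, adjusted p = 0.963). The sign of the DLX1 difference turned in 4 alternatives, 1 of them without normalization between arrays (-0.08). GATA1, GATA4 and GATA6, and TFAP2B, TFAP2D and TFAP2E, were detected on no array.

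The list of other trophoblast factors was chosen with earlier results of these data known, so its counts are a description and support nothing. Of 21 other transcription factors of trophoblast 11 were tested, and 3 were called higher and 1 lower in limma, against 2.56% called over all genes tested. An unadjusted p under 0.05 was found for 7, against 14.2% over all genes, and the median difference was 0.25 against 0.00. One of the 3, SKIL, entered the fit through the treated group alone. EOMES, a T-box factor, rose by 0.78 (standard error 0.13; adjusted p = 0.0085), and CDX2, a homeodomain factor, by 0.64 (standard error 0.12; adjusted p = 0.0158). Both are factors of the early trophoblast lineage in the mouse. SKIL, a SMAD corepressor, was detected on no control array and all treated arrays, at least 1.31-fold higher, or at least 1.14-fold with the background left in. It was tested only because the treated arrays detected it, which favours a difference without forcing one. With no filter on dim probes SKIL was not called (limma, adjusted p = 0.0841). HAND1, a basic helix-loop-helix factor, fell by 0.49 (adjusted p = 0.0492), with all arrays of the groups apart.

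Most of these calls also lay near the threshold in limma. HAND1 missed it in 12 of 16 alternatives (adjusted p over all of them 0.0112 to 0.183), among them leaving out any single array. SKIL missed it in 10 of 15 (0.0186 to 0.149), among them leaving out any array but control replicate 3 (0.67 to 0.85 on the log2 scale). CDX2 missed it in 6 of 16 (0.00884 to 0.267), among them leaving out either of control replicates 1 (0.61) and 2 (0.63) or of treated replicates 1 (0.61) and 3 (0.63). EOMES missed it in 1 of 16 (0.00803 to 0.139), without normalization between arrays.

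Products of trophoblast were not called. Of 44 such genes on the array 31 were detected on no array and 6 were tested, with 0 called in limma and 3 with an unadjusted p under 0.05, against 14.2% over all genes. PLAC1, a placental gene, differed by -0.56 (standard error 0.13; limma, adjusted p = 0.0508), and PGF, a placental growth factor gene, was detected on no treated array, at least 1.16-fold lower, and not called (limma, adjusted p = 0.0773). Of the tested products ALPP was bright, at a mean log2 intensity of 13.13 in the control and 13.07 in the treated samples. LEP, SDC1, HSD17B1 and PLAC1 were also detected on all arrays. Of 15 defining markers of trophoblast, which leave these products out, CGB3 and HLA-G were detected on some arrays. The other 13, among them GCM1, CYP19A1, PSG1, CSH1 and KRT7, were detected on none. The summed raw signal of the 23 probes of all 15 markers was 5366 to 5839 in the control and 5111 to 5804 in the treated samples. Some transcription factors of pituitary cells outside the pituitary markers were detected on all arrays. Among them were LHX2, ISL1, EGR1, TBX19 and PITX1, the last at a mean log2 intensity of 13.28 in the control and 13.22 in the treated samples. Of 8 pituitary markers on the array, LHX4 was detected on some arrays and the other 7, among them POMC, PRL, GH1 and GNRHR, on none. Their summed raw signal was 3051 to 3288 in the control and 2645 to 3015 in the treated samples. The trophoblast sums overlap between the groups, and the treated pituitary sums lie below the control sums. Both are sums of signals not normalized between arrays, mostly from genes detected on no array. The median raw signal over all probes was 248.8 to 271.1 on the control and 228.9 to 251.5 on the treated arrays. The lower pituitary sums are therefore not read as a difference in pituitary RNA.

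In the axis upstream and downstream of the hormones 1 of 8 genes was tested. GNRH1, the gonadotropin-releasing hormone gene, was detected on all control arrays and no treated array, at least 1.37-fold lower, or at least 1.18-fold with the background left in. It entered the fit through the control group alone, which favours a difference without forcing one. With no filter on dim probes it was not called (limma, adjusted p = 0.108). Its call was lost in 9 of 15 alternatives (adjusted p over all of them 0.019 to 0.115), among them the replicate number as a block (0.0853) and leaving out either of control replicates 1 (-0.72 on the log2 scale) and 2 (-0.63) or of treated replicates 1 (-0.75) and 2 (-0.60). The hormone receptor genes LHCGR, FSHR, TSHR and GNRHR were detected on no array. Of 14 transcription factors of pituitary cells 7 were tested and 0 were called in limma, where 2 had an unadjusted p under 0.05, against 14.2% over all genes. Over all of these lists without the HEK293 genes, 45 of 133 genes were tested. Of these 3 were called higher and 2 lower, SKIL and GNRH1 among them, against 2.56% called over all genes tested. The lists were chosen with earlier results of these data known, so this count is a description.

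**Figure D4:**
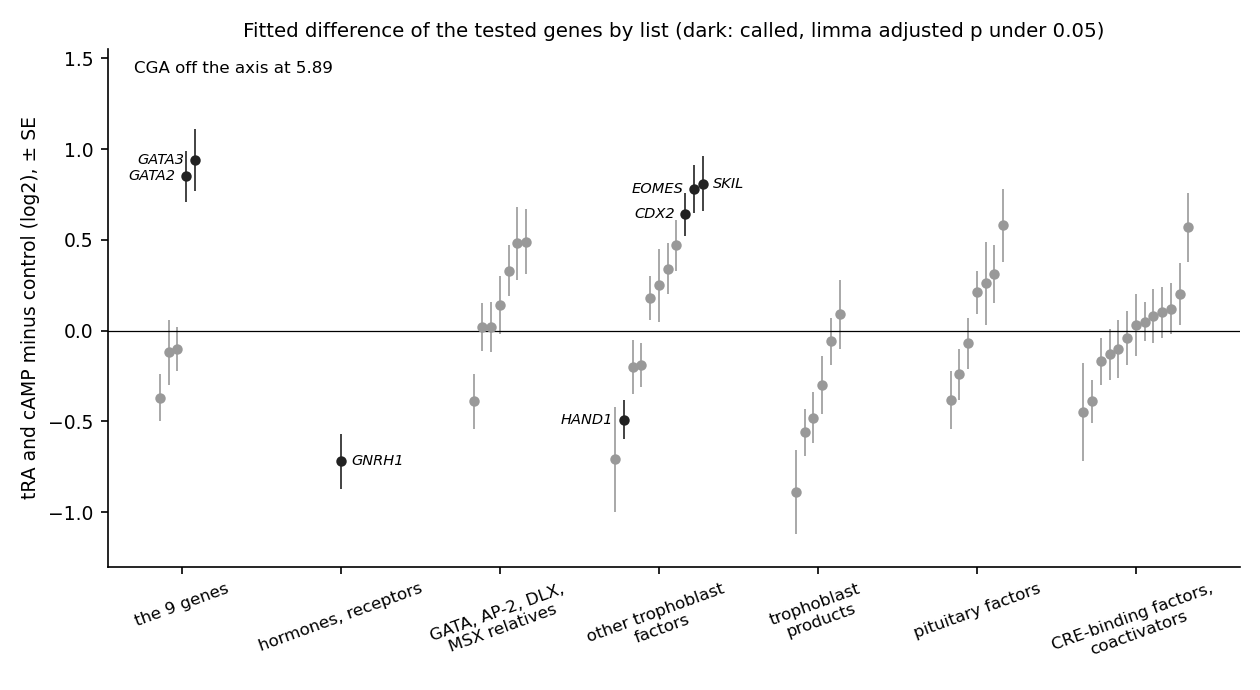
Fitted difference between treated and control samples (log2, with the standard error) of each tested gene by list; dark points were called in limma, and CGA is off the axis at 5.89. GATA2 and GATA3 lie above all uncalled genes of the lists shown, and the trophoblast products lie between -0.89 and 0.09.

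The factors known to bind the CRE, and their coactivators, did not pass the threshold. Of 17 listed genes 13 were tested and 0 were called in limma, where 2 had an unadjusted p under 0.05, against 14.2% over all genes. CREB1, which binds the CRE and is activated by phosphorylation, differed by 0.03 (standard error 0.17), and CREM, a related factor, by 0.57 (standard error 0.19; limma, adjusted p = 0.188). Such arrays measure RNA and not phosphorylation.

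Genes that share the promoter feature of CGA were compared as a description. Of 8234 tested genes with a promoter window, 317 had a CRE in at least 1 window, of which 8 (2.52%) were called higher and 2 (0.631%) lower. Of the 7917 without a CRE, 83 (1.05%) were higher and 107 (1.35%) lower. Only the full TGACGTCA was counted as a CRE here. Its shorter part TGACG was found in 21.2% of all windows, so genes without a CRE may hold that part. The median difference was 0.04 with a CRE and 0.00 without. The 8 higher genes, named after their values were seen, were CGA, USH1C, DUSP1, PDE7B, GABARAPL1, MAF, SKIL and ZFYVE27. They include CGA, which chose the set, and 6 of them, all but DUSP1 and GABARAPL1, were detected on no control array and so were tested only through the treated group. Counting genes detected on all 6 arrays alone, a choice made after seeing the data, 2 of 301 with a CRE (0.664%) were called higher and 1 (0.332%) lower, against 66 (0.874%) and 70 (0.927%) of 7550 without. DUSP1, a phosphatase of MAP kinases detected on all arrays, differed by 1.67 on the log2 scale. USH1C, a scaffold protein, was at least 2.71-fold higher.

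Only 12 tested genes had 2 or more CREs in a window, and CGA was the 1 of them that was called. The other 11 differed by between -0.20 (APTX) and 0.35 (DUSP8). Next to CGA, the genes JARID2, VPS37B and ARG2 carry the same number of copies and differed by 0.20, -0.14 and -0.08.

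The genes whose arrays ran most like those of CGA were found by the root mean square distance of the 6 log2 values, each taken from the gene's control mean. The 5 genes at the smallest distances were CYP26A1, IGFBP3, CYP26B1, USH1C and DNER. CGA, IGFBP3, USH1C and DNER were detected on no control array, so their control means are not measured levels and the distances have no order. For CYP26A1, a retinoic acid hydroxylase detected on all arrays, the distance was 0.26, with treated values of 5.75, 5.57 and 5.67 above its control mean against 5.78, 5.95 and 5.94 for CGA. For CYP26B1, another hydroxylase detected on all arrays, it was 1.58. IGFBP3, which binds insulin-like growth factors, was at least 8.60-fold higher and DNER, a transmembrane protein of neurons, at least 1.51-fold higher. The distance is a description over 6 arrays and follows mainly the size of the increase.

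**Figure D5:**
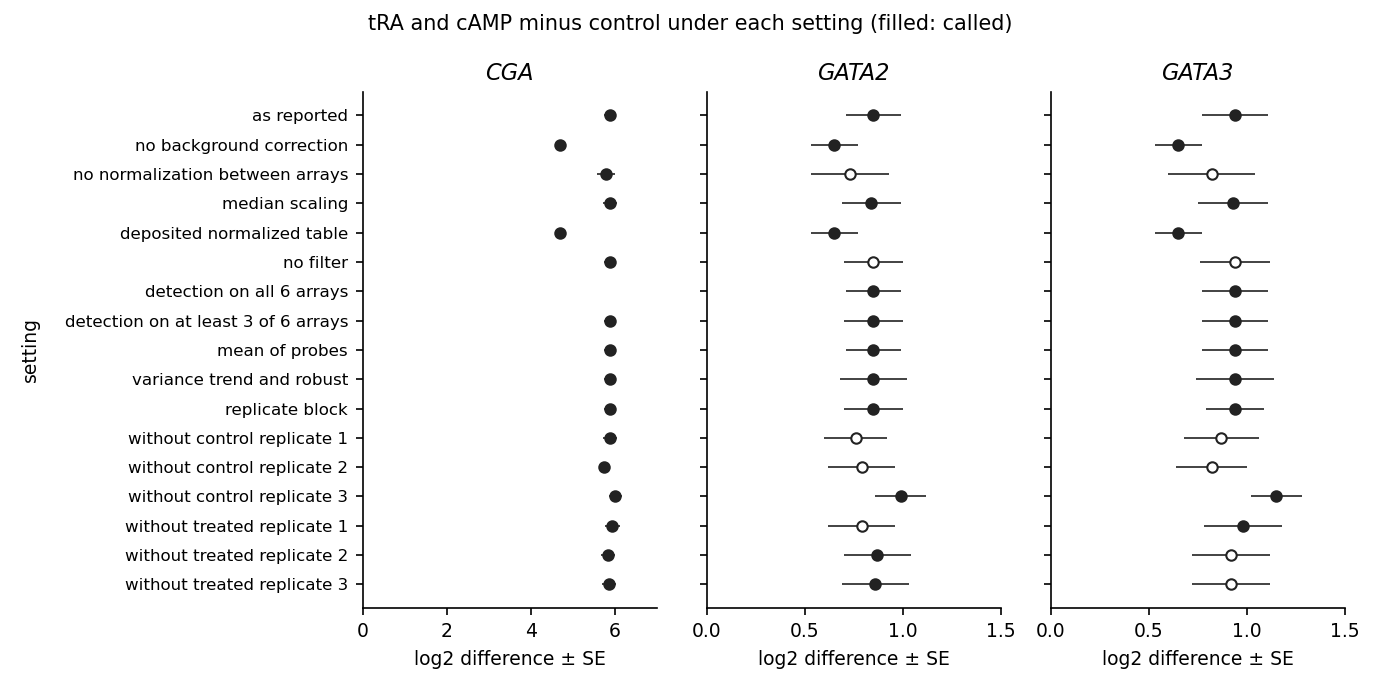
Fitted difference (log2, with the standard error) of CGA, GATA2 and GATA3 under each processing setting; filled points were called in limma, and CGA has no value where detection was asked for on all 6 arrays. CGA lies between 4.69 and 6.02 and is called throughout, GATA2 between 0.65 and 0.99, and GATA3 between 0.65 and 1.15.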

How the data were processed

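Total RNA was biotin-labelled as cRNA and hybridized to Illumina bead arrays, per the labels' protocols. The deposited intensity of a probe is its mean bead signal on an array, not normalized between arrays; BeadStudio is named in the submitters' processing notes; the deposited detection p-value ranks a probe among the negative controls, per the file headers. A second deposited intensity table, normalized by the authors by a method not given in the sources used here, was an alternative only. It gave the same counts of calls as quantile normalization with no background correction (118 higher and 176 lower). These 2 alternatives are therefore not independent of each other. Groups and replicate numbers came from the sample titles.

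The neqc function of limma 3.58.1 (R 4.3.3) corrected and quantile-normalized the raw signals to a log2 scale with an offset of 16. The platform annotation named 1 gene for 28098 of 48803 probes, several for 13 and none for 20692. A probe was tested where detected (p under 0.01) on all 3 arrays of a group, and the brightest tested probe stood for a gene. The filter thus also lets in genes seen in 1 group alone. The fit used lmFit and eBayes on the 6 arrays with no covariate, and Benjamini-Hochberg adjustment covered all 9944 genes. A fold from below detection is a bound: the dim side is each array's lowest detected normalized signal, or the probe's signal where that is higher.

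The members and lists were chosen with earlier results of these data known. Genes named are the members, up to 4 called genes per list, tested GATA, AP-2 and DLX relatives, and the 5 genes nearest to CGA; others (CRE genes, uncalled markers and list members) were named after their values were seen. Motifs were searched on both strands, TATAAA on 1, in RefSeq promoter windows (GRCh38.p14); the match went by symbol. The fit was tested on simulated data. Plots used matplotlib 3.10.9 in Python 3.11.15.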

Additional observations from a re-analysis of the deposited data

How the results depend on the processing

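With 3 arrays per group precision is limited, and signals near the negative controls limit what can be said of dim genes. CGA was called and higher in all 15 alternatives that tested it (4.69 to 6.02 on the log2 scale); with detection asked for on all 6 arrays it was not tested. Of the 6 tested members 3 were called, against 1 without normalization between arrays and 1 with no filter, and 1 to 3 when 1 array was left out. Of the 45 other listed genes 5 were called, against 3 with no background correction and 3 in the deposited normalized table, 2 without normalization, 1 when dim probes were kept, 2 where all 6 arrays had to detect a probe, and 1 to 4 when 1 array was left out. Over all genes 110 were higher and 145 lower. Without normalization 43 were higher and 120 lower (26.4% of the calls higher against 43.1%), with all genes shifted by -0.101 on the log2 scale. With no filter 53 were higher and 78 lower, with more genes tested (18852). With detection on all 6 arrays 89 were lower. Leaving out 1 array gave 52 to 83 higher and 85 to 113 lower, with fewer samples. Of genes with a CRE 8 were called higher, and 2 where detection on all 6 arrays was asked for (chosen after seeing the data). The cause of the other changes was not tested. DLX3 turned to 0.02 without treated replicate 1 (-0.32 to 0.02 over the arrays left out), and DLX1 to -0.08 without normalization, -0.04 with the mean of probes, and -0.06 and -0.03 without control replicate 1 and treated replicate 1 (-0.06 to 0.13). With the replicate number as a block 3 members were called (CGA 5.89, GATA2 0.85, GATA3 0.94), 4 other listed genes, and 84 genes higher and 110 lower. Same-numbered arrays correlated at -0.047 to 0.055 in their deviations from the group means. With 3 arrays per group such values cannot show whether the numbers pair the samples.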
